A study of Drosophila melanogaster with 10 samples.

Results

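The new-glue genes ng1, ng2, ng3 and ng4 are 4 small neighbouring genes of the Drosophila X chromosome, read in the salivary gland of the larva. Their probe sets were found by the gene symbol of the platform annotation, which gave 4 probe sets with a single ng symbol, 1 per gene, among 18769 probe sets tested and 11981 named genes. An additional probe set carried the symbols of both ng1 and ng2 and is given beside them, since its signal cannot be assigned to either gene. No threshold on expression was used to choose them.

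Glue genes are read in the salivary gland of the larva during the intermoult period, when the gland fills with the secretion that later fixes the pupa to its substrate. The steroid hormone ecdysone times this programme through its receptor EcR and usp and through transcription factors such as those of br, and the gland factors fkh and sage help to restrict it to the gland. The ng genes are described as genes of the earlier part of this programme, active before or as the Sgs glue genes are switched on, and they lie in the same puffed region of the polytene X chromosome as Sgs4.

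RNA levels were measured with Affymetrix expression arrays on 10 samples in 4 groups. Kc cells, a cell line of embryonic origin, were kept at 25 °C and received dsRNA on days 0, 2 and 4, with RNA taken on day 6; the dsRNA targeted the linker histone H1 or, as the control, GFP (2 arrays per group). The series record speaks of a single treatment, and the days are those of the sample labels. The salivary glands came from flies that carried the ubiquitous driver Tub-Gal4 with an RNAi construct against nau (Nautilus), the control, or against H1, crossed at 18 °C and held at 29 °C from the embryo on (3 arrays per group). RNAi therefore acted in the whole animal and not in the gland alone, the larval stage at dissection is not given in the sources used here, and both gland groups share the driver and the temperature shift.

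Arrays carry letters within a group, and no label states that they stem from independent cultures or animals; p-values therefore cover only the variation among the arrays at hand, part of which may be technical. Levels are log2 of the deposited intensity. The arrays peaked at 14.09 to 14.34. Background was taken from the 17 Tag controls, probe sets for sequences foreign to the fly, whose 95th percentile was 3.55 (the Tag level below). The number of arrays limits the precision. No probe set for transcripts of the targeted H1 was analysed here, so the knockdown is unmeasured. The nau probe set was higher in the glands labelled nau RNAi (5.68 ± 0.29, SD, n = 3) than in those labelled H1 RNAi (3.47 ± 0.10, n = 3). Each gland direction below therefore refers to the labels. The labelled tissue was checked with 10 gland markers, and all 10 group means lay above the Tag level in both gland groups. The summed intensity of these markers ran from 106532 to 110701 in the glands labelled nau RNAi and from 25499.65 to 28735 in those labelled H1 RNAi. Most of that sum came from the listed Sgs genes, so its fall largely repeats the Sgs decreases given below. PH4alphaSG1 read 10.85 and 10.65 in the same order (limma adjusted p = 0.300). PH4alphaSG2 read 11.40 and 11.50 (limma adjusted p = 0.579). The remaining markers, sage and fkh, were lower, as given below. The 5 measured fat body markers were also far above the Tag level in the glands, with summed intensities of 50784 to 54030 and 57302 to 59372 in the same order.

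In glands the 4 ng genes did not move together. Transcripts of ng4 were about 10-fold higher in the glands labelled H1 RNAi, those of ng1 and ng3 were about 1.5-fold and 1.7-fold lower, and ng2 did not pass the test. Of the 4 genes 1 was thus called higher and 2 lower at an adjusted p under 0.05, where 18.8% of all tested probe sets were called higher and 21.9% lower. With so many calls in this comparison the count of members called is no result in itself. The median log2 change of the 4 was 0.00, against -0.08 over all probe sets tested.

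**Figure D1:**
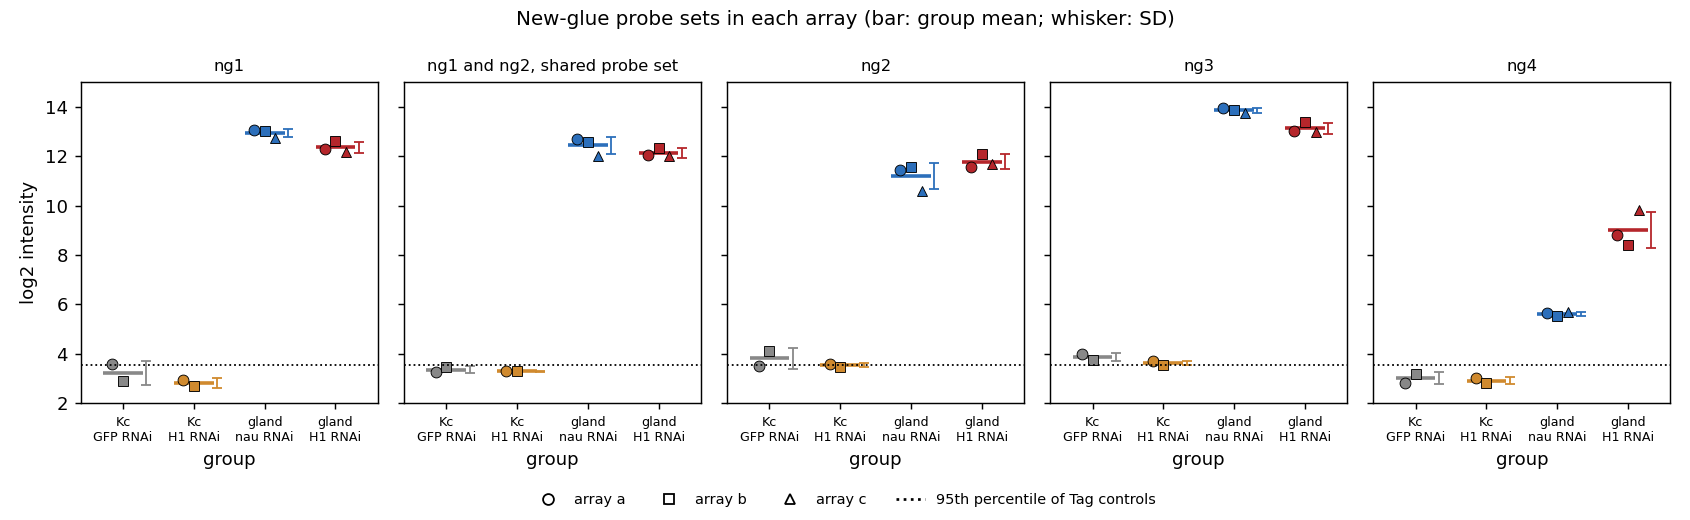
Log2 intensity of each ng probe set (panels) in every array, by group, with the group mean as a bar, the SD as a whisker and the 95th percentile of the Tag controls (3.55) as a dotted line. All gland arrays lie well above the Kc arrays in each panel, and the glands labelled H1 RNAi stand far above those labelled nau RNAi for ng4.

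For ng4 the glands labelled nau RNAi read 5.66, 5.54 and 5.67 in arrays a, b and c, and the glands labelled H1 RNAi read 8.81, 8.40 and 9.83. Every H1 array exceeded every nau array, as for 20.9% of all tested probe sets. The log2 change was 3.39 (standard error 0.30, 95% interval 2.72 to 4.06, 10.5-fold, limma adjusted p = 1.35e-05). Probe sets that rose at least this far made up 0.89% of those tested, and ng4 was the 167th largest increase. The spread differed between the groups, with an SD of 0.08 in the control glands and 0.74 in the glands labelled H1 RNAi, where array c was highest and array b lowest. Without that array c the change was 2.98.

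For ng3 the glands labelled nau RNAi read 13.96, 13.88 and 13.75 and those labelled H1 RNAi 13.02, 13.40 and 12.99. The groups did not overlap, as for 28.1% of all tested probe sets in the direction of lower values. The log2 change was -0.72 (standard error 0.12, 95% interval -1.0 to -0.44, limma adjusted p = 0.00115). Its control values lay only 0.33 to 0.59 under the highest value of their arrays, a range in which array signals flatten, and how far this compresses the difference was not tested.

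For ng1 the values were 13.08, 13.02 and 12.76 in the glands labelled nau RNAi and 12.29, 12.61 and 12.18 in those labelled H1 RNAi. The groups again did not overlap, as for 28.1% of all tested probe sets in the direction of lower values. The log2 change was -0.59 (standard error 0.19, 95% interval -1.01 to -0.17, limma adjusted p = 0.0296). This call was lost without nau array a (-0.53, limma adjusted p = 0.0857), nau array b (-0.56, 0.0797), H1 array a (-0.56, 0.0715) or H1 array c (-0.50, 0.0941), while the value stayed below 0.

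For ng2 the direction was the opposite. The glands labelled nau RNAi read 11.44, 11.56 and 10.59, and those labelled H1 RNAi 11.56, 12.11 and 11.70. All H1 arrays were above all nau arrays, as for 20.9% of the tested probe sets, but array a labelled H1 RNAi exceeded array b labelled nau RNAi only in the third decimal. The log2 change of 0.59 did not pass (standard error 0.26, 95% interval 0.01 to 1.18, limma adjusted p = 0.0991), and it was 0.29 without nau array c, the lowest of the 6.

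The probe set shared by ng1 and ng2 lay between the single-gene probe sets in its change. It read 12.71, 12.58 and 12.03 in the glands labelled nau RNAi and 12.05, 12.36 and 12.00 in those labelled H1 RNAi, so the groups overlapped. The change of -0.31 did not pass (standard error 0.17, 95% interval -0.69 to 0.08, limma adjusted p = 0.181). Without nau array c, which was low here too, it was -0.51 and passed (limma adjusted p = 0.0116). Because ng1 and ng2 are close copies, whether their single-gene probe sets also bind the RNA of the other copy was not tested.

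Since signals of different probe sets are not on a common scale, the unequal response was read from differences within an array. The difference ng4 minus ng1 rose by 3.98 between the gland groups, ng4 minus ng2 by 2.80 and ng4 minus ng3 by 4.11 on the log2 scale. In each of these 3 comparisons all 3 H1 arrays lay above all 3 nau arrays. The exact two-sided permutation test gave p = 0.1 for each, also after Benjamini-Hochberg adjustment, which is the smallest p that 3 arrays against 3 allow.

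In Kc cells the ng transcripts were at or near the level of the Tag controls. For ng1 the GFP arrays read 3.58 and 2.89 and the H1 arrays 2.95 and 2.69. For ng4 they read 2.83 and 3.19, and 3.03 and 2.80, all under the Tag level. The values of ng2 were 3.52 and 4.13 with GFP RNAi and 3.59 and 3.47 with H1 RNAi, and those of ng3 were 3.97 and 3.75, and 3.69 and 3.57. None of the 4 genes passed the test in Kc cells with limma (changes from -0.42 for ng1 to -0.10 for ng4, the lowest adjusted p 0.481 for ng1), none had an unadjusted p under 0.05, and 4.11% of all probe sets were called there. For ng3 both H1 arrays were below both GFP arrays, as for 32% of all probe sets. At this level a decrease could not be seen.

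The gland effect exceeded the Kc effect for ng4 by 3.49 (standard error 0.47, 95% interval 2.43 to 4.54, limma adjusted p = 0.000521), a test of the difference that called 25.9% of all probe sets. For ng2 (0.89, adjusted p = 0.158), ng3 (-0.49, 0.105) and ng1 (-0.18, 0.731) this difference did not pass in limma. In Kc cells ng2 and ng3 were near the Tag level and the ng1 means under it, so the Kc part of these differences is signal near background. For ng1 the difference was -0.58 with a floor at the Tag level and 0.17 without GFP array b of the Kc cells.

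The gland and Kc levels differed for each ng gene. Between control glands and control Kc cells, ng3 differed by 10.00 on the log2 scale (standard error 0.14, limma adjusted p = 1.86e-11), with its gland values close to the arrays' maximum and its Kc values close to the Tag level. The difference of ng1, with its Kc mean raised to the Tag level, was at least 9.40 or at least 675-fold. The difference of ng2 was 7.37 (limma adjusted p = 1.35e-08). For ng4 it was at least 2.07 or at least 4.20-fold (limma adjusted p = 7.27e-05 for the difference without that bound). All 4 were thus called higher in control glands, as were 21.6% of all probe sets. Tissue, driver, temperature, control RNAi and the 3′ excess of control transcripts, given below, differ together here and cannot be told apart.

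Under the H1 label the same comparison gave 9.51 for ng3, at least 8.81 for ng1, at least 8.24 for ng2 and at least 5.46, or at least 44.0-fold, for ng4 (limma adjusted p from 2.07e-11 to 1.41e-07). All 4 were called higher, against 19.8% of all probe sets. Across the groups the order of levels was the same for ng1 and ng3, with control glands highest, then glands labelled H1 RNAi, then the Kc groups, which did not differ by the test above. For ng2 and ng4 the glands labelled H1 RNAi had the highest mean, and for ng2 its margin over control glands did not pass the test.

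The ng genes stand side by side within the span of dnc, the gene of a cyclic AMP phosphodiesterase, in the Release 6 annotation of RefSeq. The reference order there is CG14265, ng2, ng3, ng1, ng4, Pig1 and Sgs4. The genes of this row did not share a direction: ng3 and ng1, which are adjacent, were called lower, ng4 next to ng1 was called higher, and Sgs4 was called lower. Sgs4, a glue gene, read 14.23, 14.29 and 14.32 in the glands labelled nau RNAi and 8.53, 10.26 and 9.18 in those labelled H1 RNAi. Its log2 change was -4.95 (standard error 0.34, limma adjusted p = 3.01e-06). The control values were close to the arrays' maximum, and how far this compresses the difference was not tested.

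Pig1, the pre-intermoult gene that lies between ng4 and Sgs4, read 12.74, 12.67 and 12.70 in control glands and 12.68, 12.92 and 12.71 in the glands labelled H1 RNAi. The groups overlapped, and the log2 change was 0.07 (95% interval -0.28 to 0.41, limma adjusted p = 0.752). So the genes on both sides of Pig1 differed by several log2 units in opposite directions, while Pig1 did not pass.

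CG14265, on the other side of the ng genes, rose by 0.34 (limma adjusted p = 0.0472), from 13.96 ± 0.02 to 14.30 ± 0.01 (SD, n = 3 each), at the top of the array range. That call was lost under 11 of 18 alternative settings. The host gene dnc fell from 8.94 ± 0.14 to 8.09 ± 0.02, a change of -0.85 (limma adjusted p = 3.25e-05). CG10793, which also lies within dnc, was under the Tag level in both gland groups.

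**Figure D2:**
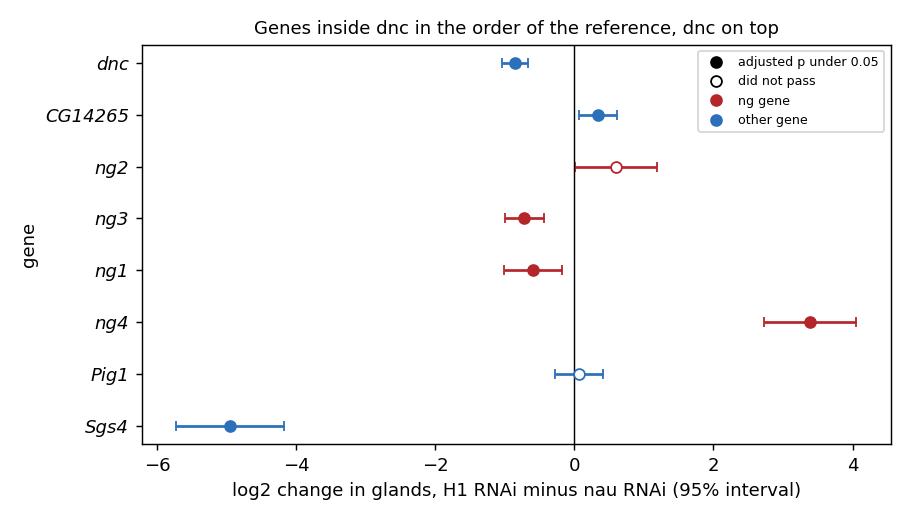
Log2 change in glands (H1 RNAi minus nau RNAi, horizontal axis) with its 95% interval for dnc and for the row of genes inside it from CG14265 to Sgs4 in reference order (vertical axis), filled where the adjusted p was under 0.05. The row holds values on both sides of 0, with ng3 and ng1 at -0.72 and -0.59, ng4 at 3.39, Pig1 at 0.07 and Sgs4 at -4.95.

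Beyond dnc the neighbourhood was mixed. Of 21 genes that contain the ng genes or are among the 10 protein-coding genes on either side, 19 were measured, 3 rose, 5 fell and 11 did not pass, with a median log2 change of 0.01. Over all named genes 23.6% rose and 23.6% fell. The increases were those of rst (3.72), an adhesion protein gene that works in muscle fusion and eye patterning, CG12535 (1.12) and CG14265. The decreases were those of Sgs4, dnc, CG3603 (-0.63), Fcp3C (-0.67), which encodes a protein of the follicle cells, and CG10793, the last from background. The calls of Fcp3C, CG12535 and CG10793 were lost under 11, 3 and 6 alternative settings. The neighbours N and Myc are not analysed here. The change of rst, from 4.64 ± 0.13 to 8.36 ± 0.44 (SD, n = 3 each, limma adjusted p = 3.66e-07), was close to that of ng4 in size. In Kc cells CG12535 (3.19) and CG14269 (at least 1.73, from under the Tag level) rose and CG3603 fell by 0.72. There 4.11% of all tested probe sets were called in either direction. No gene inside dnc passed in Kc cells. CG14265, Pig1, Sgs4 and CG10793 were near or under the Tag level there, where a decrease could not be seen.

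The glue and pre-intermoult genes as a list moved in the direction opposite to ng4. Of its 8 members, all measured, none rose, 7 fell and Pig1 did not pass, where 23.6% of all named genes fell, with a median log2 change of -3.67 against -0.04 over all named genes. The smallest decreases were those of Sgs7 (14.31 ± 0.03 to 13.43 ± 0.10, SD, n = 3 each, log2 change -0.88) and Sgs8 (14.01 ± 0.01 to 12.69 ± 0.21, -1.32), a pair of small glue proteins. The decreases of ng1 and ng3 lay next to them in size. Sgs5 changed by -3.48, Sgs5bis by -3.85, Sgs3 by -5.40 and Sgs1 by -6.59 (limma adjusted p from 1.58e-07 for Sgs1 to 0.00597 for Sgs3 over the 7 genes). The Sgs3 value rests on H1 arrays that read 9.87, 11.39 and 5.15, and it was -3.58 without array c and -6.70 without array b. The SD of Sgs3 was 0.06 with the nau label and 3.25 with the H1 label. Its p-value uses a spread shared by all groups, which is smaller than that of the H1 arrays. The control values of the Sgs genes other than Sgs1 were also close to the arrays' maximum. In bulk RNA of dissected glands, fewer gland cells and less RNA per cell cannot be told apart.

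**Figure D3:**
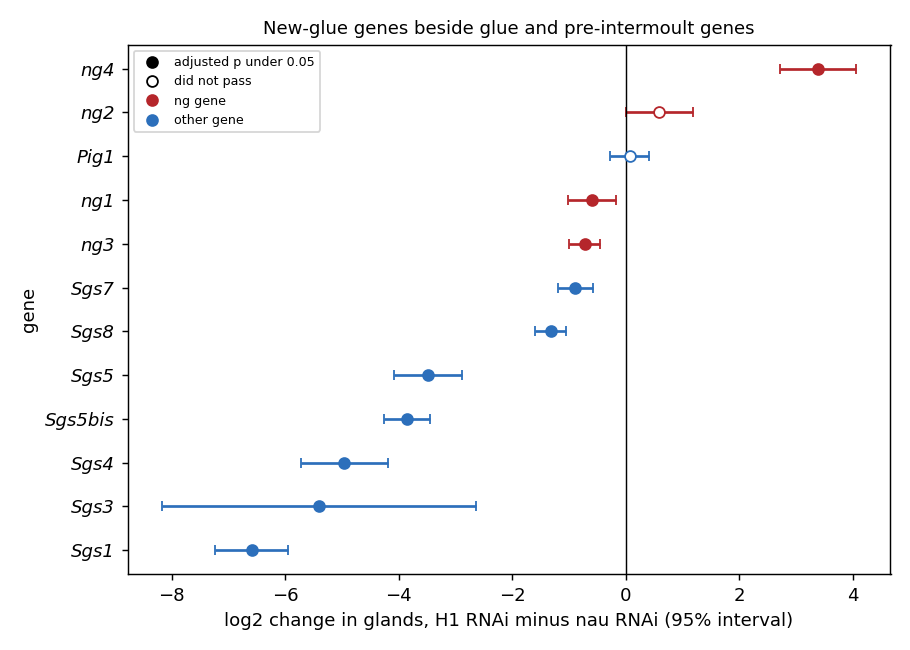
Log2 change in glands (H1 RNAi minus nau RNAi, horizontal axis) with its 95% interval for the ng genes and for the glue and pre-intermoult genes (vertical axis), filled where the adjusted p was under 0.05. The 7 Sgs genes lie at -0.88 or lower, ng1 and ng3 at -0.59 and -0.72, Pig1 and ng2 do not pass, and ng4 lies at 3.39.

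Most of the measured gland and ecdysone regulators were lower as well. Of 17 listed genes 13 were measured. By the probe set that represents each gene, none rose, 9 fell and 4 did not pass, where 23.6% of all named genes rose and 23.6% fell. Other probe sets of ftz-f1 and Eip93F rose, as given below. Their median log2 change was -0.67. The gland factors sage (-2.45), a bHLH protein, fkh (-0.97), a forkhead protein, and sens (-0.67), a zinc finger protein, fell, and so did EcR (-1.36) and usp (-0.43), the partners of the ecdysone receptor. The orphan nuclear receptor genes Hr39 (-1.43), Eip78C (-2.88) and Hr4 (at least 2.70 lower) fell. With the H1 label Hr4 was at the Tag level and Eip78C next to it (mean 3.56), so background limits both values. Scr, a Hox gene of the gland primordium, and Hr3 did not pass. The Hr3 means were under the Tag level in both gland groups (3.36 and 3.37), where a decrease could not be seen.

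Several regulators were read by more than 1 probe set, and these did not always move alike. All 5 probe sets of br, the Broad transcription factor gene, had lower means with the H1 label, from -0.34 (limma adjusted p = 0.208) to -2.94 (adjusted p = 4.19e-07), and the one with the highest overall mean gave -0.46. For ftz-f1, a nuclear receptor gene of the prepupal response, the representing probe set did not pass (0.26, limma adjusted p = 0.146), but the other rose by 3.19, from 5.93 to 9.12 (adjusted p = 3.15e-06). For Eip93F, a later ecdysone gene, the representing probe set was under the Tag level, and the other rose from under the Tag level to 3.81 (limma adjusted p = 0.00179). The other Hr4 probe sets, near the Tag level, did not pass (-0.46 and -0.26, limma adjusted p = 0.0910 and 0.0615). For Hr39 the others gave -1.22 (limma adjusted p = 0.00208), -1.48 (0.000628) and -0.37 (0.165). The last of these was under the Tag level with both labels.

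Single gland arrays differed in the ng genes and in these regulators. Array c labelled nau RNAi was the lowest of its group for ng1, ng2, ng3 and the shared probe set, and the highest for Eip78C (7.80 against 5.69 and 5.84), Hr4 (7.85 against 6.01 and 4.90) and Hr39 (10.02 against 9.18 and 9.19). Its ng4 value stood close to the others. Among the arrays labelled H1 RNAi, array c was the lowest for ng1, ng3 and Sgs3 (5.15 against 9.87 and 11.39) and the highest for ng4, and array b was the highest for ng1, ng2, ng3 and Sgs3 and the lowest for ng4. With 3 arrays a group this is a description of single arrays.

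**Figure D4:**
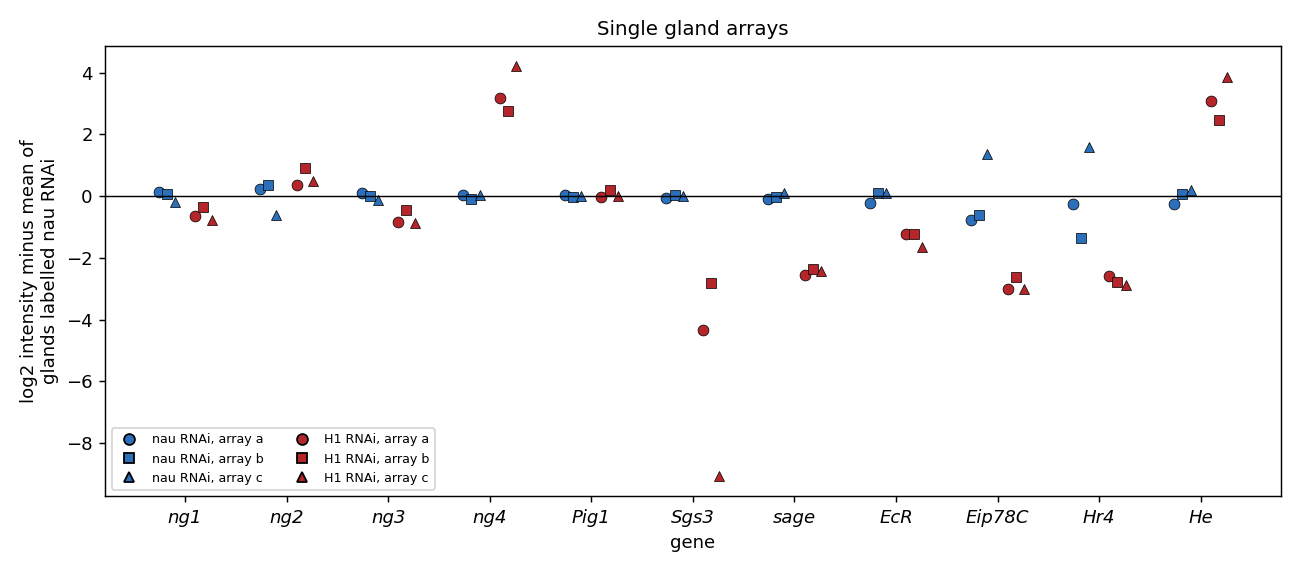
Log2 intensity of each gland array minus the mean of the glands labelled nau RNAi (vertical axis) for ng genes, Pig1, Sgs3, regulators and the haemocyte gene He (horizontal axis), with a marker shape per array letter. Array c labelled nau RNAi is low for ng2 and high for Eip78C and Hr4, and array c labelled H1 RNAi is low for Sgs3 and high for ng4 and He.

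Some markers of other cell types moved with the same labels, and their counts are to be read against the 23.6% of named genes called in each direction. Of 12 haemocyte markers 10 rose and 1 fell in the glands labelled H1 RNAi, and their summed intensity ran from 5437 to 6453 with the nau label and from 9126 to 9748 with the H1 label, with none at the Tag level. Most of that sum came from Col4a1, srp and vkg (means of 11.04, 10.64 and 10.20 with the nau label), so it says little about the other markers. He, a haemocyte surface protein gene, read 4.29, 4.63 and 4.75, then 7.65, 7.01 and 8.42. Its H1 arrays stood in the same order as those of ng4, as did those of Hml, NimC1, PPO1, PPO2, Ppn and crq. The H1 arrays of eater, Pxn, srp, vkg and Col4a1 stood in another order. With 3 arrays such an order is a description only. Kc cells, which have haemocyte properties, held He at 7.22 and 7.41 with GFP RNAi and at 3.89 and 3.82 with H1 RNAi, a log2 change of -3.46 (limma adjusted p = 0.000573) and thus opposite to the glands, while ng4 was under the Tag level in all 4 Kc arrays. Of 5 measured fat body markers 3 rose and 1 fell. Of 8 measured neuron and glia markers 5 rose and 1 fell, with summed intensities of 274 to 321 and 445 to 906, and cac, Nrt and repo were at the Tag level with the nau label. Array a labelled H1 RNAi stood far above arrays b and c for elav (7.78 against 5.41 and 5.68) and Appl (7.38 against 5.13 and 5.42). The same held for Nrt (5.25 against 3.49 and 3.42) and repo (5.83 against 3.42 and 3.99). For brp and nrv2 array a was highest by less, and for cac and nSyb it was not the highest. Of 6 midgut markers 3 rose and 1 fell (114 to 136, then 169 to 709), with mex1 at the Tag level with the nau label. Here too H1 array a was highest for Jon65Aiii (8.14 against 6.44 and 6.00), alphaTry (7.36 against 4.93 and 3.56), betaTry and mex1. It was lowest for Jon99Ci and Jon44E. Of 4 measured muscle markers 1 rose (340 to 448, then 265 to 613), and of 6 imaginal markers 1 rose and 1 fell (478 to 556, then 646 to 707), with nub at the Tag level in both gland groups and esg with the nau label. Among these marker calls, that of apolpp (fat body) was lost under 12 of 18 alternative settings, that of Jon44E (midgut) under 14, those of NimC1 (haemocytes) and Nrt (neurons) under 7 each, that of nub (imaginal) under 5, that of Jon65Aiii (midgut) under 3 and that of brp (neurons) under 2. The part of these cells in the rise of ng4 was not tested.

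The excess of signal at the 3′ over the 5′ end of control transcripts, which grows with RNA degradation and incomplete labelling, was also higher with the H1 label. For GAPDH it ran from 2.09 to 2.18 in the glands labelled nau RNAi and from 2.45 to 2.63 in those labelled H1 RNAi, and the eIF-4a and actin controls did not overlap either. In Kc cells the GAPDH excess was smaller, from 0.82 to 0.84 with GFP RNAi and from 0.42 to 0.73 with H1 RNAi. The part of this 3′ excess in the decreases of ng1 and ng3, or in the differences between glands and Kc cells, was not tested.

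Other genes followed the ng profiles closely over the 10 arrays. The measure was Pearson's r of the log2 intensity, among 6750 named genes with a range of at least 1, and it is given as a description of arrays that share 4 groups. The profile most like that of ng1 was that of ng3 (r = 0.9996), followed by CG2736, Srg1, CG32198 and CG2444 (r from 0.9990 to 0.9986). For ng3, CG32198, CG2736, Tsp29Fb, a tetraspanin gene, and Srg1 came after ng1 (0.9993 to 0.9990). With r = 0.9906 to ng1 and 0.9904 to ng3, ng2 was nearest to Nep6, of the neprilysin family (0.9993), CG13360, Spn43Ab, a serpin gene, CG8654 and CG18649 (0.9980), whose gland changes ran from 0.55 to 0.80 in the direction of ng2. These genes were picked by their likeness over the same arrays, so the shared direction follows in part from that choice. The gland change of ng2 itself did not pass.

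The profile of ng4 stood apart from those of its neighbours, with r = 0.81 to ng1, 0.87 to ng2 and 0.81 to ng3. The nearest were CG14968 (r = 0.9967), CG14109 (0.9949), Qsox1 (0.9945), a sulfhydryl oxidase gene, Ppt2 (0.9938), a palmitoyl thioesterase gene, and CG5397 (0.9924). CG14109 came closest in size, with means of 7.16 in control glands and 10.23 in the glands labelled H1 RNAi, a difference of 3.07. Qsox1 and Ppt2 were already well above the Tag level in Kc cells (9.44 and 7.71 with GFP RNAi), and their gland differences were 0.75 and 1.01, so a high r here did not go with a like size of change.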

How the data were processed

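Affymetrix Drosophila arrays of biotin-labelled total RNA were used, 10 in all. The deposited values are linear intensities, 1 for each array and probe set (4.39 to 20761). RMA is the only step the submitters' processing notes name, and whether cells and glands were processed together is not given in the sources used here. Log2 of the deposited intensity was taken, and 183 control probe sets were left out of 18952. Symbols came from the platform annotation, updated by gene number through RefSeq (assembly Release 6, used for names and gene order only, since the files name no build). Where probe sets shared a gene, the brightest on average over the 10 arrays stood for it (11981 named genes). A model with 4 group means was fitted over the 10 arrays (lmFit and eBayes of limma 3.58.1, R 4.3.3), with Benjamini-Hochberg adjustment over 18769 probe sets and calls at an adjusted p under 0.05. The fit was tested on simulated data. Where a group mean lay under the Tag level, the bound sets it to that level.

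The ng genes, the lists and the rule for named genes were chosen with earlier results of these data known: every ng probe set, all measured glue and regulator list members, the neighbours, nau and BigH1, and the 5 genes with the highest correlation to each ng gene. BigH1, the germline variant of H1, did not pass in glands (0.16, limma adjusted p = 0.216). The regulators CrebA, hth, Eip74EF and Eip75B are not analysed here, and no sequences were used. Alternatives covered a floor at the Tag level, a filter on dim probe sets, quantile and median scaling, an offset of 16, each system fitted alone, another variance prior, a replicate block and leaving out each array.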

Additional observations from a re-analysis of the deposited data

Results flagged for a closer look

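The response of ng4 to the H1 label differed between glands and Kc cells by a test of the difference itself. The gland effect minus the Kc effect was 3.49 on the log2 scale (limma adjusted p = 0.000521). It came from 3.39 in glands and -0.10 in Kc cells, where all 4 arrays lay under the Tag level. In glands all 3 H1 arrays were above all nau arrays, as for 20.9% of all tested probe sets. Over 17 alternatives the gland effect minus the Kc effect ran from 3.07 to 3.79, with the highest limma adjusted p 0.005.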

How the results depend on the processing

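The 5 ng probe sets kept the direction of their gland change under all 18 alternatives. The calls of ng3 (-0.85 to -0.65, highest limma adjusted p 0.00551) and ng4 (2.98 to 3.70, 0.00039) and the missing call of ng2 (0.29 to 0.78) held under each. Leaving out single arrays moved ng1 between -0.72 and -0.50, with the call lost for 4 arrays as given above, and the shared probe set between -0.51 and -0.17, with a call without nau array c. The cause was not tested. For ng3 the difference between systems passed with an offset of 16 (-0.61) and without H1 gland array b (-0.62). The glue list kept 7 and the regulator list 9 decreases throughout. Neighbour genes called higher ran from 1 to 3 when single arrays were left out (1 without nau array a or H1 array c), and those called lower were 3 with a floor at the Tag level, with the offset of 16 or with glands fitted alone.

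In Kc cells, where no ng gene was called under any alternative, 543 probe sets were called higher and 228 lower. Leaving out single arrays gave 235 to 634 higher and 35 to 282 lower, with the lowest counts when a Kc array was left out. Kc cells fitted alone gave 1275 and 877. The lower calls were 433 with the floor, 534 with the offset and 412 with the other prior.

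Arrays of a letter did not pair (correlations of deviations -0.07, 0.09 and 0.07 for the gland letters a, b and c). With the replicate block, ng1 and ng4 changed by -0.59 (limma adjusted p = 0.0098) and 3.39 (0.000135), and the Kc lower calls were 75. Signal near background limits every Kc value.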
